A study of Mus musculus with 12 samples.

Results

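The genes described here are 9 regulators and enzymes of the osteoblast lineage, measured by RNA-seq in an osteocyte cell line with and without HDAC4 and HDAC5, at rest and after fluid-flow shear stress (FFSS). They were chosen by name, from the mouse Ensembl annotation of the counted genes: the transcription factors Runx2 and Sp7, the homeobox genes Dlx3, Dlx5, Msx1 and Msx2, the phosphatases Alpl and Phospho1, and Bglap, the gene of osteocalcin. These names matched 10 of the 37583 gene IDs counted in each library, since Runx2 had 2 IDs, and all 9 genes were among the 14904 genes tested. The second Runx2 ID had 0 counts in all 12 libraries, and all of its exons lie within the first.

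The cells were Ocy454, a mouse osteocyte line from long bone that is immortalised with a temperature-sensitive T antigen and was sub-cloned from a single cell. Control cells are labelled as the original line, and DKO cells as lacking HDAC4 and HDAC5, which are class IIa histone deacetylases. The methods of the study describe the control cells of its guide RNA experiments as carrying an empty guide lentivirus, which the labels do not mention, so whether these control cells carried a vector is unknown here. Before the experiment all cells were kept at 37 °C for 14 days, which switches off the T antigen. Cultures were either left static or shaken for 3 h on a heated mixing platform to apply FFSS, which gave 4 groups with 3 libraries each (control static, control FFSS, DKO static and DKO FFSS). All control libraries come from 1 line and all DKO libraries from another, so that the deletion and other differences between the lines cannot be told apart. The labels do not say whether the 3 libraries of a group came from separate cultures, and p-values therefore measure only the spread between these libraries.

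RUNX2 is the transcription factor that commits mesenchymal cells to the osteoblast lineage, and SP7 (osterix) acts downstream of it. Proteins of the DLX and MSX families bind similar homeodomain sites, and in bone DLX3 and DLX5 are known mainly as activators and MSX2 as a repressor of osteoblast genes such as Bglap. ALPL, the tissue-nonspecific alkaline phosphatase, cleaves the mineralization inhibitor pyrophosphate, PHOSPHO1 releases phosphate inside matrix vesicles, and osteocalcin is a bone matrix protein made late in osteoblast maturation. Class IIa histone deacetylases repress transcription through MEF2 factors and can bind RUNX2, which is why these genes are of interest in cells that lack them.

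Between 17.6 and 19.2 M reads were assigned to genes per library. CPM here are the counts of a gene scaled to the size of its library after TMM adjustment, and 3 counts, the limit that a count of 0 allows, correspond to between 0.146 and 0.178 CPM. The targeted genes were lower in DKO than in control cells at rest but still had reads. Hdac4, by the more abundant of its 2 IDs, was at 26.1 ± 2.67 CPM (SD, n = 3) in control static and at 14.5 ± 2.43 CPM in the DKO static group, and Hdac5 at 133 ± 7.04 and 84.5 ± 5.54 CPM (log2 fold change -0.85 and -0.65, adjusted p = 0.000102 and 7.94e-06 in edgeR). Under FFSS Hdac4 was at 37 ± 5.99 and 13.3 ± 0.634 CPM, whereas Hdac5 was at 81.2 ± 9.56 CPM in control and 92.8 ± 0.456 CPM in DKO cells (log2 fold change 0.19, adjusted p = 0.0512). Reads are summed over the whole gene and so do not check a small deletion. In the control FFSS group, replicate 1 stood apart from replicates 2 and 3. A chi-square test of the counts gave 63.8 and 58 per degree of freedom against replicates 2 and 3, and 6.45 between those, while the pairs within the other groups gave 2.02 to 5.66. The share of reads outside annotated genes was 5.87% in control FFSS replicate 1, and 9.19% and 10.04% in replicates 2 and 3. It was 5.10 to 5.21% in control static, 7.07 to 7.14% in DKO static and 7.93 to 8.55% in DKO FFSS libraries. Because all 12 libraries share 1 estimate of the spread, the distance of control FFSS replicate 1 from replicates 2 and 3 also enters the tests between the other groups. In each comparison the count of members that passed is therefore also given without that library. Those fits have only 2 control FFSS libraries, replicates 2 and 3, and replicate 1 was singled out after its distance was seen. Their smaller spread and p-values follow in part from that choice.

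At rest, control cells had at least 253 counts per library for each of these genes except Msx2. Per kilobase of exon free of other genes, the mean level in control static cells was highest for Alpl, at 405 ± 22 CPM per kb (SD, n = 3), followed by Sp7 at 177 ± 6.72, Phospho1 at 169 ± 10.4 and Dlx5 at 126 ± 5.61 CPM per kb. Runx2 was at 34 ± 1.31, Dlx3 at 28.2 ± 2.9, Bglap at 25.6 ± 3.7 and Msx1 at 7.59 ± 0.6 CPM per kb. Msx2 had 3 to 9 counts per library, 0.128 ± 0.0641 CPM per kb. Neighbours in this order had ranges that did not overlap, except Sp7 with Phospho1 and Dlx3 with Bglap. In DKO static cells Bglap stood second, at 291 ± 5.69 CPM per kb, between Alpl at 451 ± 30.4 and Sp7 at 259 ± 3.81 CPM per kb, and the range of each gene there was apart from that of its neighbours in the order. The place of Phospho1 is uncertain. Only 333 of its 2151 exon bases (15.5%) are free of other genes, most of the rest being shared with Zfp652 on the same strand and Abi3 on the other, and over all of its exon bases its level in control static cells would be 26.1 CPM per kb. For Runx2, of which 65.5% of the exon bases are free of other genes, it would be 22.2 CPM per kb. The other 7 genes share no exon base with another gene.

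**Figure D1:**
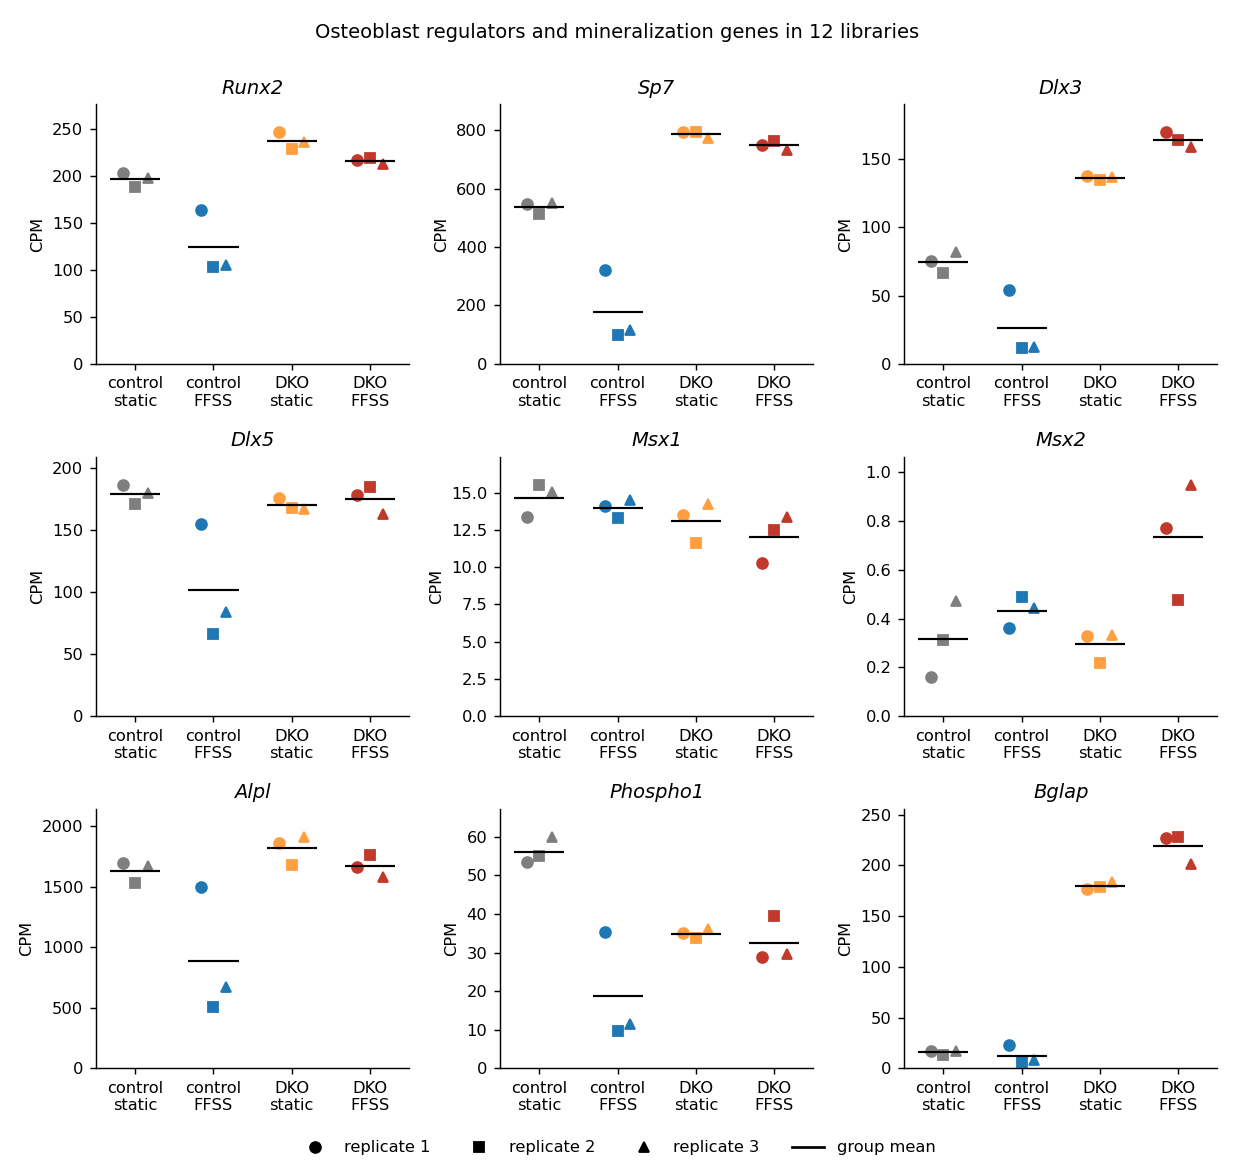
Level of each of the 9 genes in the 12 libraries (vertical axis, TMM-scaled CPM from 0; horizontal axis, the 4 groups; symbols mark the replicate and bars the group mean, n = 3). In control FFSS cells replicate 1 lay above replicates 2 and 3 for Runx2, Sp7, Dlx3, Dlx5, Alpl, Phospho1 and Bglap, and Bglap was between 176.8 and 228 CPM in the 6 DKO libraries.

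Promoter sequences are shown for 4 genes that the comparisons below turn on and that had an entry among the promoters used here. They are Bglap, which differed most between the lines, Runx2, whose product binds the core letters searched for, and the phosphatase genes Alpl and Phospho1. The promoters used here, from RefSeq (GRCm38.p6), covered 6 of the 9 genes, those 4 with Msx1 and Msx2. Each sequence is the 250 bases before the annotated start, 5′ to 3′ in the direction of the gene. Capitals mark matches, on either strand, to any of the motifs searched. The RUNX core was read as TGTGGT. A variant of the RUNX core was read as TGCGGT. The core of homeodomain sites was read as TAATTA. The box bound by SP factors was read as GGGCGG. The TATA box was read as TATAAA. The MEF2 box was searched as well. The Bglap window is chr3:88384467-88384716, the Runx2 window chr17:44814628-44814877 and the first Alpl window chr4:137796385-137796634, all on the minus strand, and the Phospho1 window is chr11:95824250-95824499 on the plus strand.
Bglap: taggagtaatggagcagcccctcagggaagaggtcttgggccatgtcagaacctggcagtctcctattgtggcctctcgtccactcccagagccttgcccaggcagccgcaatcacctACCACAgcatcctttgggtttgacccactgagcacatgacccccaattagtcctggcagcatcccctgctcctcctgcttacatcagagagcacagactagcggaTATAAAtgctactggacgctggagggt
Runx2: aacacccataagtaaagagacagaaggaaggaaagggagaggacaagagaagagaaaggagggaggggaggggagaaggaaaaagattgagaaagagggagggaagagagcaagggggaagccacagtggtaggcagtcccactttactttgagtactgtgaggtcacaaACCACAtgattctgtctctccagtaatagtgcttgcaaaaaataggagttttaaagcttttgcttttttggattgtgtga
Alpl: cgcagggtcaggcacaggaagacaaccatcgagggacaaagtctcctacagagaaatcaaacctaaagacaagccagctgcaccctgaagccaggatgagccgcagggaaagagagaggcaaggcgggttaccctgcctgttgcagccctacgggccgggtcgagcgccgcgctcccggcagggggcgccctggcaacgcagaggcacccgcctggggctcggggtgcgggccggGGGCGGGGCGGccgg
Phospho1: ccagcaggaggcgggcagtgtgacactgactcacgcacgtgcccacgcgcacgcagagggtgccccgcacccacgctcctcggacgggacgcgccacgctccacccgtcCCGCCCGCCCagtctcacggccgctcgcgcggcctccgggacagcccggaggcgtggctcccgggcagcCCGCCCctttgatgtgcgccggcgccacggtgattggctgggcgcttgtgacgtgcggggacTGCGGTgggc

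The Bglap window held 1 RUNX core (ACCACA on this strand) 132 to 127 bases before the start and a TATA box 27 to 22 bases before it. The Runx2 window also held 1 RUNX core, 80 to 75 bases before the start, and Phospho1 held 1 RUNX variant core 10 to 5 bases before the start with 3 SP boxes, 2 of which overlap by 2 bases. The first Alpl window held 2 SP boxes that share 1 base, and a second annotated Alpl start had only a TATA box match, on the other strand. Msx2 held 1 homeodomain core and 1 SP box, Msx1 1 SP box, and no MEF2 box was in any window of the 6 genes. Of all 32851 promoters of this length, 14% held the RUNX core, 5.1% the variant, 4.84% the homeodomain core, 3.2% the MEF2 box, 32.7% the SP box and 12.4% the TATA box. These matches describe the letters in these windows and are not evidence of binding.

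The first question was which of these genes differed between DKO and control cells at rest. Bglap (chr3:88187423-88188386 in mm9, minus strand) was at 16.9, 13.2 and 17.4 CPM in the 3 control static libraries and at 177, 178 and 184 CPM in the 3 DKO static libraries. All DKO libraries were thus far above the highest control library. The log2 fold change was 3.51 (SE 0.37, edgeR quasi-likelihood test, adjusted p = 3.91e-05), that is 11.4-fold higher. Bglap was the only member called, meaning an adjusted p under 0.05 and a change of more than 2-fold, or 1 of 9 genes called higher against 7.98% of all genes tested. It was called without each of the 12 libraries in turn, at log2 fold changes between 3.39 and 3.58.

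Bglap2, a near copy of the osteocalcin gene, lies on the same strand 4.8 kb from Bglap and was also higher. Bglap2 was at 5.11 ± 1.1 CPM in control static and 44.6 ± 4.78 CPM in the DKO static group (SD, n = 3), with a log2 ratio of 3.12 (SE 0.3, adjusted p = 9.62e-06 in edgeR). Its 6 DKO libraries lay above its 6 control libraries, as for Bglap. Reads that fit more than 1 gene were not counted, so the split of reads between Bglap and Bglap2 is uncertain.

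**Figure D2:**
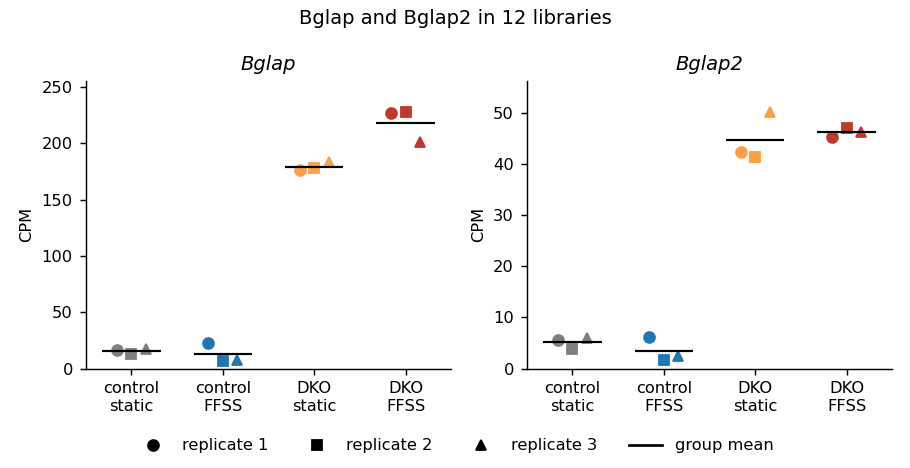
Level of Bglap and Bglap2 (vertical axis, TMM-scaled CPM from 0, with a separate scale for each gene) in the 4 groups on the horizontal axis, with 1 symbol per library and bars at the group means (n = 3). For each gene the 6 DKO libraries lay above the 6 control libraries, with means of 15.8 and 179.5 CPM for Bglap and 5.11 and 44.6 CPM for Bglap2 in control and DKO static cells.

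Runx2, Sp7 and Dlx3 were higher in every DKO static library than in any control static library, but none passed the edgeR test over 12 libraries as 4 groups. Sp7 (chr15:102187040-102197285 in mm9, minus strand) was at 546.5, 514 and 552 CPM in control static and at 794, 793 and 774 CPM in DKO static libraries. Its log2 fold change was 0.55 (SE 0.37, adjusted p = 0.25 in edgeR). Dlx3 (chr11:94981403-94986610 in mm9, plus strand) was at 75.1, 66.4 and 81.7 CPM in control static and at 137.5, 134 and 137 CPM in DKO static libraries. Its log2 fold change was 0.87 (SE 0.48, adjusted p = 0.156 in edgeR). For both genes the DKO libraries lay close together, above the whole control range. Runx2 (chr17:44632936-44951746 in mm9, minus strand) was at 203, 188 and 198 CPM in control static and at 247, 229.5 and 237 CPM in DKO static libraries, with a log2 fold change of 0.27 (SE 0.14, adjusted p = 0.118 in edgeR). The DKO libraries again lay above the control libraries, by a smaller ratio.

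Phospho1 (chr11:95685813-95693454 in mm9, plus strand) had the opposite order, at 53.4, 55 and 60 CPM in control static and at 35.1, 33.7 and 36 CPM in DKO static libraries, with a log2 fold change of -0.68 (SE 0.4, adjusted p = 0.178 in edgeR). Its ranges were apart, with the DKO libraries lower. Zfp652, which shares most of its exon bases, was at 76.2 CPM in control static and 72.1 CPM in DKO static cells (log2 fold change -0.08, adjusted p = 0.433 in edgeR). Alpl, Dlx5, Msx1 and Msx2 had overlapping ranges, with log2 fold changes of 0.16 for Alpl, -0.07 for Dlx5, -0.16 for Msx1 and -0.1 for Msx2. Counting Bglap, 4 of 9 genes had higher ranges in DKO cells and 1 a lower range, against 34.9% and 34.1% of all genes tested.

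When the spread was estimated without control FFSS replicate 1, which does not belong to either static group, 4 genes were higher and 1 lower at an adjusted p under 0.05, in place of 1 and 0, against 32% of all genes in each direction. The adjusted p was then 4.73e-11 for Sp7, 6.78e-14 for Dlx3, 3.42e-06 for Runx2 and 3.7e-07 for Phospho1 (edgeR), with log2 fold changes as above to 2 decimals. In a fit of the 6 static libraries alone, these genes and Alpl, at a log2 fold change of 0.16 (adjusted p = 0.00736 in edgeR), passed, against 32.6% of all genes in each direction. Bglap was the only one with more than a 2-fold difference in either fit. By limma-voom over 12 libraries 2 genes were higher and 1 lower, beside 8102 of 14904 genes changed in either direction. Dlx3 (log2 fold change 0.88, adjusted p = 0.0244) and Phospho1 (-0.68, adjusted p = 0.0472) passed there with Bglap. With the share of reads outside annotated genes as a covariate in the fit of 12 libraries, 6 genes were higher, against 28.6% of all genes, and 3 were called, against 8.29%. The log2 fold change was then 1.32 for Sp7 (adjusted p = 5.94e-05 in edgeR), 1.97 for Dlx3 (adjusted p = 2.49e-08), 0.6 for Runx2 (adjusted p = 1.69e-08), 4.33 for Bglap, 0.79 for Alpl, 0.43 for Dlx5 and 0.18 for Phospho1 (adjusted p = 0.393). Within groups, that share varied most in control FFSS libraries, from 5.87% to 10.04%. The effect fitted for the share thus rests mainly on control FFSS replicate 1 against replicates 2 and 3, which are in neither static group. That share was higher in every DKO static than in any control static library, and its part in these differences was not tested.

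The second question was how FFSS moved these genes in control cells. Of the 9 genes, 5 were lower at an adjusted p under 0.05, against 18.1% of all genes tested, and 3 of these (Sp7, Phospho1 and Dlx3) were called lower, against 1.97% of all genes. None was changed in the other direction, against 17.7% of all genes. The ranges of 6 genes lay wholly below those of the static libraries, against 22% of all genes. The median log2 fold change was -0.82 over the 9 genes and 0.01 over all genes tested. Among markers of other cell types, 2 of 13 tested chondrocyte and 2 of 9 tested osteocyte markers were also lower, with 1 higher in each. Of 3 tested osteoclast and macrophage markers 2 were lower and 1 higher, and of 2 tested tendon markers 1 was lower. No adipocyte or muscle marker passed. Without control FFSS replicate 1, 7 chondrocyte and 5 osteocyte markers were lower, against 28.4% of all genes, and 1 of each higher, against 26.8%. The part of these markers was not tested. In bulk RNA, fewer cells that express a gene and less RNA of it per cell cannot be told apart.

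Sp7 went from 546.5, 514 and 552 CPM in the static libraries to 321, 97.6 and 116 CPM in control FFSS replicates 1 to 3. All 3 FFSS libraries were below all static libraries, replicate 1 by far the least. The log2 fold change was -1.59 (SE 0.38, adjusted p = 0.0129 in edgeR). Dlx3 went from between 66.4 and 81.7 CPM to 54.1, 11.5 and 12.4 CPM, with a log2 fold change of -1.52 (SE 0.5, adjusted p = 0.0438 in edgeR). Replicate 1 kept 72.8% of the static mean, and replicates 2 and 3 kept 15.5% and 16.6%. The call for Dlx3 was lost when any 1 library other than control FFSS replicate 1 was left out, with adjusted p up to 0.114. Phospho1 went from between 53.4 and 60 CPM to 35.2, 9.61 and 11.4 CPM, with a log2 fold change of -1.59 (SE 0.41, adjusted p = 0.0168 in edgeR). It missed the threshold without control FFSS replicate 3 (adjusted p = 0.0522), and without that library 1 of the 9 genes, in place of 3, was called, against 1.32% of all genes. Zfp652 was lower as well, by a smaller amount (log2 fold change -0.42, SE 0.08, adjusted p = 0.00186 in edgeR).

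Runx2 and Dlx5 fell by less than 2-fold. Runx2 went from between 188 and 203 CPM to 164, 103 and 106 CPM, with a log2 fold change of -0.66 (SE 0.14, adjusted p = 0.00444 in edgeR), and it passed the threshold without each library in turn. Dlx5 (chr6:6827805-6832085 in mm9, minus strand) went from between 171 and 187 CPM to 154.5, 65.7 and 83.8 CPM, with a log2 fold change of -0.82 (SE 0.25, adjusted p = 0.0312 in edgeR). Its static and FFSS ranges did not overlap, but it missed the threshold when any of the 3 control static libraries, or control FFSS replicate 2 or 3, was left out (adjusted p up to 0.108). With no filter on low counts neither Dlx5 (adjusted p = 0.0673 in edgeR) nor Dlx3 (adjusted p = 0.0793) passed, and 2 of the 9 genes were called lower, against 1.07% of all genes. Alpl (chr4:137297648-137352299 in mm9, minus strand) went from 1696, 1531 and 1671 CPM to 1497, 506 and 671 CPM, with a log2 fold change of -0.87 (SE 0.33, adjusted p = 0.0666 in edgeR). Its FFSS range was below the static range, and replicate 1 was close to it. Alpl did pass by DESeq2 (adjusted p = 0.0351), by limma-voom (log2 fold change -1.03, adjusted p = 0.0112) and in edgeR without robust estimation (adjusted p = 0.0285).

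Bglap did not move in 1 direction. Control FFSS replicate 1 was at 23 CPM, above all 3 control static libraries, and replicates 2 and 3 were at 6.69 and 8.12 CPM, below them (log2 fold change -0.33, SE 0.39, adjusted p = 0.546 in edgeR). Msx1 (chr5:38211724-38215822 in mm9, minus strand) was between 13.4 and 15.6 CPM in control static and between 13.3 and 14.6 CPM in control FFSS libraries. Its log2 fold change was -0.07 (SE 0.11, adjusted p = 0.666 in edgeR), and it was the only regulator with overlapping ranges apart from Msx2. Msx2 (chr13:53562250-53568443 in mm9, minus strand) had 7, 10 and 9 counts in control FFSS libraries, few for a change of the size seen (log2 fold change 0.45, SE 0.42).

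**Figure D3:**
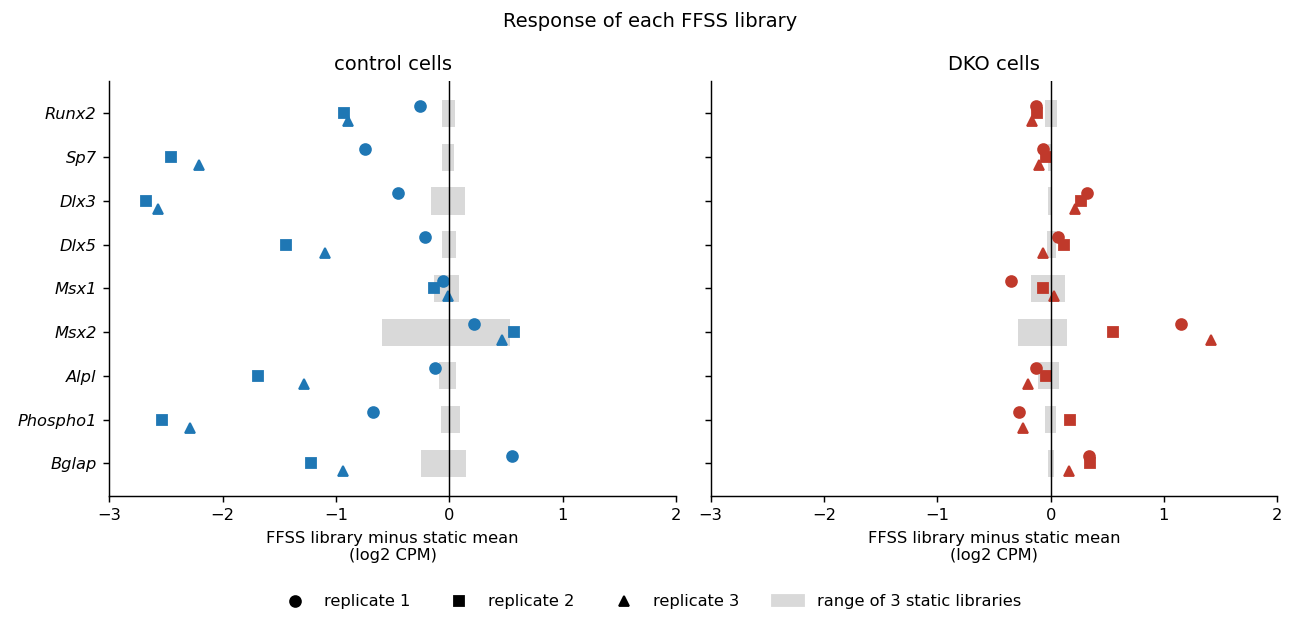
Difference between each FFSS library and the mean of the 3 static libraries of the same line (horizontal axis, log2 CPM), for the 9 genes, in control cells on the left and DKO cells on the right. Symbols mark the FFSS replicate and grey bars the range of the static libraries. In control cells replicates 2 and 3 lay at -2.46 and -2.21 for Sp7 and replicate 1 at -0.74, whereas in DKO cells all 3 Sp7 values lay between -0.1 and -0.04.

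The size of the decrease differed between the control FFSS libraries. For Sp7, Dlx3, Phospho1, Alpl, Dlx5 and Runx2, replicate 1 lay between the static libraries and replicates 2 and 3. Without replicate 1, 7 of the 9 genes were lower at an adjusted p under 0.05, against 28.4% of all genes, and 6 were called, against 4.45%. The log2 fold changes were then -2.33 for Sp7, -2.64 for Dlx3, -2.42 for Phospho1, -1.47 for Alpl, -1.26 for Dlx5, -1.09 for Bglap and -0.92 for Runx2 (edgeR adjusted p between 1.12e-21 for Sp7 and 4.47e-07 for Alpl). In a fit of the 6 control libraries alone, only Runx2 passed (adjusted p = 0.0447 in edgeR), against 8.28% of all genes lower, and 0 of the 9 were called, against 1.13% of all genes.

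The share of reads outside annotated genes moved with these values, being highest in control FFSS replicates 2 and 3. With that share as a covariate, 0 of the 9 genes were called lower, against 0.839% of all genes, and 1, Bglap, was higher, against 6.86%, at a log2 fold change of 0.81 (adjusted p = 0.003 in edgeR). The log2 fold change became -0.53 for Sp7 (adjusted p = 0.117 in edgeR), -0.4 for Phospho1, -0.17 for Runx2, -0.11 for Dlx3, -0.08 for Dlx5 and 0.03 for Alpl. The effect fitted for the share rests mainly on the distance of control FFSS replicate 1 from replicates 2 and 3. The share also differs between the lines and with treatment, and its part in the decrease was not tested.

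In DKO cells the same comparison gave 0 changed genes of 9 by the edgeR test over 12 libraries, against 0.872% of all genes tested. At an unadjusted p under 0.05 there was 1 gene, Msx2, against 13.5% of all genes. DESeq2 and limma-voom each gave 0 changed genes, against 2.68% and 0.711% of all genes. Sp7 was at 794, 793 and 774 CPM in static and at 751, 765 and 733 CPM in FFSS libraries (log2 fold change -0.07, SE 0.37). Phospho1 had overlapping ranges, of 33.7 to 36 CPM and 28.8 to 39.4 CPM (log2 fold change -0.1, SE 0.4). Alpl was between 1681 and 1914 CPM in static and between 1582 and 1764 CPM in FFSS libraries (log2 fold change -0.12, SE 0.33). Dlx5 and Msx1 also had overlapping ranges, at log2 fold changes of 0.04 (SE 0.25) and -0.13 (SE 0.11). The SE of these values is that of the shared spread and leaves room for changes of moderate size.

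Small differences stood out from the narrower spread of the DKO libraries themselves. Dlx3 was at 169.8, 164 and 159 CPM in DKO FFSS libraries, all above the 134 to 137.5 CPM of the static libraries, and Bglap at 227, 228 and 201 CPM, all above 177 to 184 CPM. Runx2 was at 217, 219 and 213 CPM, all below its static range of 229.5 to 247 CPM. In a fit of the 6 DKO libraries alone these 3 genes passed, at log2 fold changes of 0.28 for Dlx3 (adjusted p = 0.000128 in edgeR), 0.29 for Bglap (adjusted p = 0.000207) and -0.13 for Runx2 (adjusted p = 0.0435), together with Msx2, or 3 genes higher and 1 lower, against 6.15% and 5.78% of all genes. Msx2 rested on 4 to 6 counts in static and 8 to 17 counts in FFSS libraries, with a log2 fold change of 1.31 (SE 0.4, adjusted p = 0.157 in edgeR over 12 libraries and 0.0355 over 6). Without control FFSS replicate 1, which belongs to neither DKO group, the same counts of 3 higher and 1 lower came from the other 11 libraries, against 4.86% and 5.66% of all genes, and 1 of these, Msx2, was called higher, against 0.101% of all genes. With the share of reads outside genes as a covariate, Dlx3 was at 0.87 (adjusted p = 0.000353 in edgeR) and Bglap at 0.73 (adjusted p = 8.74e-05), or 2 genes higher, against 5.02% of all genes. The ranges of 3 genes were higher and those of 2 lower under FFSS, against 14% and 15.9% of all genes tested.

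The lines were also compared under FFSS. DKO FFSS against control FFSS cells gave 6 of 9 genes higher at an adjusted p under 0.05 and 0 lower, against 27% and 29.6% of all genes tested, and 3 of these were called, against 8.25% of all genes. Bglap was at 227, 228 and 201 CPM in DKO FFSS and at 23, 6.69 and 8.12 CPM in control FFSS libraries, a log2 fold change of 4.12 (SE 0.39, adjusted p = 1.54e-05 in edgeR). Dlx3 had a log2 fold change of 2.66 (SE 0.51, adjusted p = 0.0018 in edgeR) and Sp7 one of 2.07 (SE 0.39, adjusted p = 0.00157 in edgeR). For these 3 genes the lowest DKO library was more than 2 times the highest control library. All 3 were called without each library in turn.

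Runx2 was higher by 0.8 (log2, SE 0.14, adjusted p = 0.000436 in edgeR), Alpl by 0.91 (SE 0.33, adjusted p = 0.0409) and Dlx5 by 0.79 (SE 0.25, adjusted p = 0.0232). The Alpl value missed the threshold without any 1 library other than control FFSS replicate 1 (adjusted p up to 0.123), and the Dlx5 value without control FFSS replicate 3, DKO FFSS replicate 1 or DKO FFSS replicate 2 (adjusted p up to 0.081). Phospho1 had a lower range in DKO cells at rest but did not pass there (adjusted p = 0.178 in edgeR). Under FFSS, Phospho1 was at 28.8, 39.4 and 29.5 CPM in DKO libraries against 35.2, 9.61 and 11.4 CPM in control libraries (log2 fold change 0.8, SE 0.42, adjusted p = 0.132 in edgeR). Its ranges overlapped through control FFSS replicate 1. Msx1 had a log2 fold change of -0.22 (SE 0.11, adjusted p = 0.119 in edgeR) and Msx2 one of 0.76 (SE 0.37, adjusted p = 0.0931). With library totals alone Msx1 passed at -0.41 (adjusted p = 0.00732 in edgeR), where the median of all genes was -0.25. In a fit of the 6 FFSS libraries alone 4 genes were higher in place of 6, against 23.5% of all genes, without Alpl (adjusted p = 0.107 in edgeR) and Dlx5 (adjusted p = 0.0732). Alpl also missed the threshold with library totals alone (adjusted p = 0.0584) or with no filter on low counts (adjusted p = 0.0768). By limma-voom 5 genes were called, against 8.57% of all genes. Without control FFSS replicate 1, 7 genes were called in place of 3, against 9.53% of all genes, Phospho1 among them at 1.63 (adjusted p = 6.63e-11 in edgeR).

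**Figure D4:**
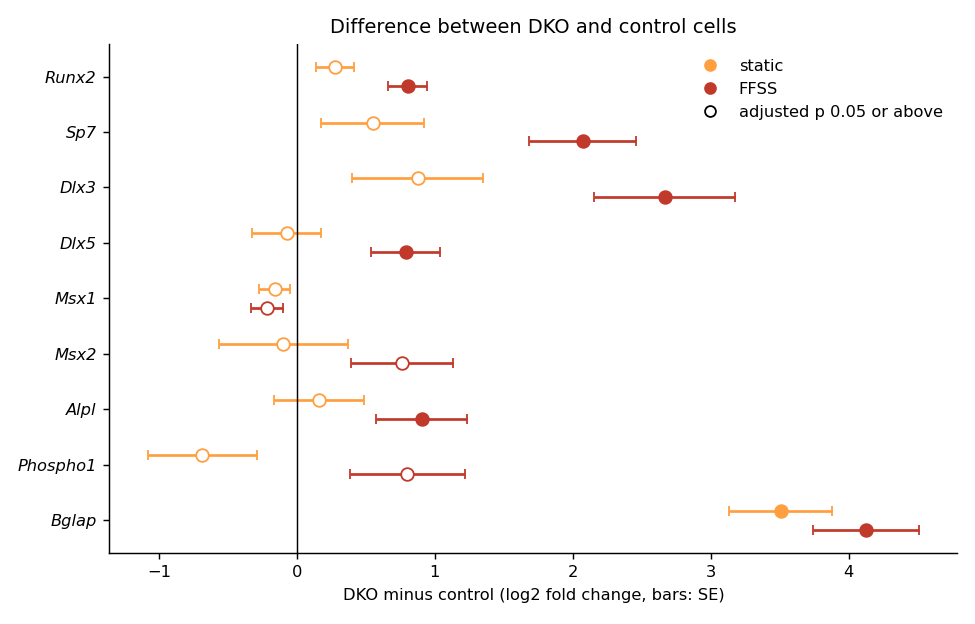
Log2 fold change of DKO against control cells with its SE (horizontal axis) for each of the 9 genes, in static cells (orange) and under FFSS (red). Filled symbols have an edgeR adjusted p under 0.05. Bglap was at 3.51 and 4.12, and Sp7 and Dlx3 went from 0.55 and 0.87 in static cells to 2.07 and 2.66 under FFSS.

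Whether the lines responded differently to FFSS was tested by the interaction (the FFSS effect in DKO cells minus that in control cells). The edgeR test over 12 libraries gave 0 changed genes of 9, against 3.97% of all genes tested. At an unadjusted p under 0.05 there were 5 genes, against 23.8% of all genes. DESeq2 gave 0 changed genes, against 7.54% of all genes, and limma-voom gave 3 (Sp7, Dlx3 and Phospho1), all higher, against 3.06%, and all called, against 0.946%. The log2 values were 1.79 for Dlx3 (SE 0.69, adjusted p = 0.164 in edgeR), 1.52 for Sp7 (SE 0.53, adjusted p = 0.139), 1.49 for Phospho1 (SE 0.57, adjusted p = 0.165), 0.86 for Dlx5 (SE 0.35, adjusted p = 0.181), 0.75 for Alpl (SE 0.46, adjusted p = 0.355), 0.62 for Bglap (SE 0.51, adjusted p = 0.49) and 0.53 for Runx2 (SE 0.2, adjusted p = 0.144). Msx1 was at -0.06 (SE 0.16) and Msx2 at 0.86 (SE 0.6, adjusted p = 0.398). Without control FFSS replicate 1 the spread was far smaller, and 7 genes passed, against 20% of all genes higher, 6 of them with more than a 2-fold difference, against 3.44%. Dlx3 was then at 2.91 (SE 0.1), Phospho1 at 2.32 (SE 0.15) and Sp7 at 2.26 (SE 0.08). With all 12 libraries and the share of reads outside genes as a covariate, Dlx3 was at 0.98 (adjusted p = 0.00341 in edgeR) and Sp7 at 0.88 (adjusted p = 0.0397), or 2 genes higher, against 3.76% of all genes. Whether the interaction of these genes passed thus depended on the fit.

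Each member was also compared with the genes whose log2 CPM, centred on the mean of the 12 libraries, differed least from its own. The measure is the root mean square difference over 12 libraries, which come from 4 groups and are not independent. The closest to Sp7 were Jag2 (0.098), Mef2c (0.125), a transcription factor that class IIa histone deacetylases bind, and Sorcs2 (0.129), beside a spread of Sp7 itself of 1.03 (SD, log2). The closest to Dlx3 were Ihh (0.144), which encodes the Indian hedgehog ligand, Cspg4 (0.163) and Pcsk6 (0.186). For Runx2 these were Arfgap3 (0.074), Itga11 (0.079) and St3gal5 (0.079), and for Dlx5 Scd2 (0.083), Cd9 (0.102) and Lrp4 (0.106). For Alpl they were Gpc1 (0.103), Sybu (0.122) and Fam102a (0.13), and for Phospho1 Cdkn1a (0.12), Panx3 (0.191) and Fam189a2 (0.196). Bglap was closest to Gja3 (0.197), its copy Bglap2 (0.251) and Ddit4l (0.264), Msx1 to Tdg (0.067), Tuba1b (0.09) and Sin3b (0.092), and Msx2, at its low counts, to Sbno2 (0.338), 9330151L19Rik (0.34) and Junb (0.355).

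Among 8 tested genes of 15 other homeobox genes of the skeleton, 5 were higher and 1 lower in DKO static cells, with a median log2 fold change of 0.86 beside 0.01 over all genes. In the same comparison 27% of all genes were changed higher and 27.2% lower. Dlx2 went from 12.1 to 36.7 CPM (log2 fold change 1.6, SE 0.13, adjusted p = 1.99e-07 in edgeR), and Pitx1, a regulator of hindlimb identity, had a log2 fold change of 1.24. Dlx6, which lies 9.24 kb from Dlx5 on the opposite strand, went from 24.9 to 40.3 CPM (log2 fold change 0.69, adjusted p = 0.00947 in edgeR), whereas Dlx5 was at 179 and 169.9 CPM. Under FFSS in control cells Dlx6 fell by 0.74 on the log2 scale (SE 0.2, adjusted p = 0.0163 in edgeR), and Dlx5 fell by 0.82. Dlx4, 15.2 kb from Dlx3 on the opposite strand, was at 0.928 CPM in control static and 1.89 CPM in DKO static cells. Prrx2, a factor of limb mesenchyme, was lower in DKO cells (log2 fold change -0.6). In control cells under FFSS 2 of the 8 were higher and 3 lower, against 17.7% and 18.1% of all genes, 4 and 3 without control FFSS replicate 1, against 26.8% and 28.4%, and 0 in either direction in the 6-library fit, against 8.25% and 8.28%.

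Of 20 partners and modulators of RUNX2, 5 were higher and 11 lower in DKO static cells, against 27% and 27.2% of all genes. The median log2 fold change was -0.32. Zfp521, which antagonises RUNX2, was at 2.38 and 0.478 CPM (log2 fold change -2.3, adjusted p = 0.000128 in edgeR), and Twist1, whose protein inhibits RUNX2 in early osteoblasts, at 133 and 52.5 CPM (log2 fold change -1.35, SE 0.1, adjusted p = 9.68e-08 in edgeR). Cebpd and Hivep3, which encodes the adaptor that promotes RUNX2 degradation, were higher (log2 fold change 1 and 0.94). Under FFSS in control cells 4 of the 20 were higher and 6 lower, against 17.7% and 18.1% of all genes. These counts were 7 and 8 without control FFSS replicate 1, against 26.8% and 28.4%, and in the fit of the 6 control libraries 2 and 2, against 8.25% and 8.28%. The list holds both activators and inhibitors, so its counts have no single direction.

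Of 16 tested genes of 18 other mineralization genes, 7 were higher and 4 lower in DKO static cells (median log2 fold change 0.05). The shares of all genes were 27% and 27.2%. Ank, which is needed for pyrophosphate outside the cell, went from 117 to 358 CPM (log2 fold change 1.61, SE 0.27, adjusted p = 0.000661 in edgeR), and Enpp6, a choline phosphodiesterase, from 7.55 to 23 CPM (1.61, SE 0.36). Smpd3, the sphingomyelinase needed for bone mineralization, went from 179 to 33 CPM (log2 fold change -2.44, SE 0.46, adjusted p = 0.00178 in edgeR), and Nt5e, which makes adenosine from AMP, from 46.9 to 11.3 CPM (-2.05, SE 0.17). Under FFSS in control cells 3 of the 16 were higher and 4 lower, against 17.7% and 18.1% of all genes. The counts were 3 and 10 without control FFSS replicate 1, against 26.8% and 28.4%, and 2 and 2 in the 6-library fit, against 8.25% and 8.28%. The other phosphatase genes of the Alpl family (Alpi, Alppl2 and Akp3) had at most 1 count in any library. Reads that fit more than 1 of these genes would be counted at none of them.

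Of 13 osteoblast matrix genes, 7 were higher and 2 lower in DKO static cells, against 27% and 27.2% of all genes. The median log2 fold change was 0.47. Spp1, which encodes osteopontin, went from 810 to 4017 CPM (log2 fold change 2.31, SE 0.11, adjusted p = 1.65e-09 in edgeR) and Col1a2, a chain of type I collagen, had a log2 fold change of 1.66 (SE 0.35). Omd and Ogn, genes of small leucine-rich proteoglycans, were lower, at -3.58 (SE 0.28) and -1.47 (SE 0.16). Under FFSS in control cells 1 was higher and 5 lower, against 17.7% and 18.1% of all genes. Leaving out control FFSS replicate 1 gave 2 and 11, against 26.8% and 28.4%, and the 6-library fit 0 and 3, against 8.25% and 8.28%. Another list held 15 genes that encode ligands, carriers, targets and inhibitors of the BMP signal, which induces Dlx and Msx genes. Of 13 tested, 10 were higher and 0 lower in DKO static cells, against 27% and 27.2% of all genes. The median log2 fold change was 0.67. Id4, an inhibitor of helix-loop-helix factors, was at 0.667 and 18.2 CPM (log2 fold change 4.76, SE 0.28) and Nog, the BMP antagonist noggin, at 1.82 and 32.8 CPM (4.17, SE 0.14). Of the 10, Smad1 and Id3 had the smallest log2 fold changes, 0.38 and 0.29. The inhibitors Nog, Smad6 (1.08) and Smad7 (0.66) are among the 10, so that this count has no single direction for the signal. In control cells under FFSS 1 BMP gene was higher and 6 were lower, against 17.7% and 18.1% of all genes, 2 and 6 without control FFSS replicate 1, against 26.8% and 28.4%, and 1 and 2 in the 6-library fit, against 8.25% and 8.28%. Without control FFSS replicate 1 the higher and lower counts at rest were 7 and 1 for the homeobox genes, 7 and 12 for RUNX2 partners, 8 and 5 for mineralization, 8 and 3 for matrix and 10 and 1 for BMP genes, against 32% of all genes in each direction. In none of the 7 lists did a changed gene switch direction with RLE factors or library totals alone in place of TMM.

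Markers of other cell types were read in the same way. Of 9 tested osteocyte markers of 10, 8 were higher and 1 lower in DKO static cells, against 27% and 27.2% of all genes. The summed level of these markers went from 441 to 532 CPM in control static to 5101 to 5159 CPM in DKO static libraries. Sost, which encodes the osteocyte protein sclerostin, was at 5.34 ± 6.13 CPM and 2062 ± 30.2 CPM (SD, n = 3), and Mepe at 0.123 ± 0.11 and 17.3 ± 1.41 CPM. Irx5 was higher by 0.82 on the log2 scale (adjusted p = 0.0411 in edgeR), and Pdpn, an early osteocyte marker, was lower, at -2.47. The defining marker Fgf23 had at most 1 count in any library of either line. In the control cells, which are labelled as osteocytic, Dmp1 and Phex were at 29.4 and 33.3 CPM and Mepe at 0 to 4 counts at rest.

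Of 13 tested chondrocyte markers of 15, 6 were higher and 1 lower in DKO static cells, against 27% and 27.2% of all genes. The summed levels of these markers were 574.2 to 743 CPM in control static and 3434 to 4215 CPM in DKO static libraries. Under FFSS they were 156 to 594 CPM in control and 3095 to 3581 CPM in DKO libraries. Col2a1 went from 3.68 ± 4.7 to 1818 ± 242.5 CPM and Col10a1 from 1.25 ± 1.44 to 602 ± 53.2 CPM (SD, n = 3). In control static libraries Col2a1 had 18 to 173 counts and Col10a1 4 to 55. Comp was also higher (log2 fold change 1.3), and Hapln1 was lower (-1.63). Without control FFSS replicate 1, 10 of the 13 were higher and 1 lower in DKO static cells, against 32% of all genes in each direction. The 6 markers higher over 12 libraries moved in the direction of Bglap between the lines, 1 moved against it and 6 did not pass. The part of these markers in the Bglap difference was not tested. The summed levels of the other lists in control static and DKO static libraries were 34.1 to 39 and 19.5 to 24.6 CPM for adipocyte, 6.68 to 8.61 and 8.27 to 10.6 CPM for muscle, 32.2 to 37.7 and 18 to 18.4 CPM for tendon, and 99.9 to 105 and 57.8 to 60.8 CPM for osteoclast and macrophage markers. In control FFSS libraries the tendon sums were 18 to 30.6 CPM and the osteoclast and macrophage sums 67.3 to 99.4 CPM. Both lay below their control static ranges. The adipocyte and muscle sums there, 22.7 to 38.6 and 4.11 to 7.24 CPM, overlapped their control static ranges. Of 2 tested adipocyte markers, Fabp4 (-1.74) and Cebpa (-0.77), and of 3 tested osteoclast and macrophage markers, Cd68 (-3.46) and Ctsk (-0.45), were lower in DKO cells, and Csf1r (1.17) was higher. Of 2 tested tendon markers, Mkx was higher (1.05) and Scx lower (-1.89), and the 1 tested muscle marker, Des, did not pass. The defining markers Adipoq, Plin1, Myod1, Myog, Tnmd, Acp5 and Ptprc had at most 3 counts in any library. Pparg, the adipocyte regulator, was not tested and had 0 to 1 count in control static, 0 to 2 in control FFSS, 6 to 9 in DKO static and 8 to 16 counts in DKO FFSS libraries.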

How the data were processed

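Total RNA of 12 Ocy454 samples was sequenced by the authors as short single-end reads, aligned with STAR to mm9 with Ensembl genes and counted with HTSeq, for which the study names 2 different versions and whose overlap mode is not given in the sources used here. The files deposited hold raw counts for each gene, made without regard to strand and not normalised. Reads fitting several places are left out, and reads in bases shared by genes were taken to be left out as well. Gene positions are mm9, 1-based. Symbols came from the mm9 annotation (98.9% of IDs).

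Groups followed the titles of the samples. The counts were tested in edgeR 4.0.16 (R 4.3.3) with robust quasi-likelihood fits of 12 libraries as 4 groups and TMM factors. The filter and limits were those of the study: a gene needed counts above 0 in all but at most 1 library, which left 14904, and a call needed more than a 2-fold change and an adjusted p (Benjamini-Hochberg) under 0.05. A gene past the adjusted p alone is termed changed. SEs were computed as the log2 fold change over the root of F. CPM used TMM-scaled totals, and log2 CPM a prior count of 2. Alternatives were RLE factors, library totals, other filters, DESeq2 1.42.0, limma-voom (limma 3.58.1), a fit without robust estimation, no fold limit, the share of reads outside genes, 6-library fits, the replicate number and leaving out each library.

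The genes named are the 9 members in every comparison, Bglap2 and the genes of the alkaline phosphatase family, the 2 highest and 2 lowest changed genes of each list in DKO against control static cells, the 3 genes with average log2 CPM above 1 most like each member, Hdac4 and Hdac5. Neighbouring Dlx genes, genes sharing exons with a member, and defining or single markers were added after their values were seen. The members and lists were chosen with earlier results of these data known. Reads carry no molecular identifiers, so limits from 3 counts cover only the counting error. The labels name no batch. Promoters came from RefSeq (GRCm38.p6). Protein sequences were not used here. A result that the rule for named genes would include is not reported here.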

Additional observations from a re-analysis of the deposited data

Results flagged for a closer look

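Dlx3 was the 1 member whose FFSS libraries moved in opposite directions in the lines. The share of all genes with this pattern is not given here, so whether it is unusual cannot be told. Of all genes tested, 22% had wholly lower ranges under FFSS in control cells and 14% wholly higher ranges in DKO cells. All 3 control FFSS libraries were below the control static mean, by -0.45, -2.67 and -2.57 (log2 CPM), and all 3 DKO FFSS libraries were above the DKO static mean, by 0.32, 0.27 and 0.22. The interaction was 1.79 on the log2 scale (SE 0.69) and missed the threshold (adjusted p = 0.164 in edgeR), and it was 2.91 (SE 0.1) without control FFSS replicate 1. With the share of reads outside genes as a covariate it was 0.98 (adjusted p = 0.00341 in edgeR). The log2 fold change of Dlx3 under FFSS in control cells was then -0.11 (adjusted p = 0.732 in edgeR).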

How the results depend on the processing

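Of 979 values of single genes under the alternatives, 871 kept their direction and side of the adjusted p threshold, 46 no longer passed it, 48 newly passed it and 14 reversed. Under FFSS in control cells the count of members called was 3 and became 5 with no fold limit, 0 with the share of reads outside genes as a covariate and 0 in the 6-library fit, with a range of 1 to 6 when 1 library was left out. Under FFSS in DKO cells it was 0 and became 1 in the 6-library fit, against 0.121% of all genes called higher (0 to 1 without 1 library). For DKO against control cells it was 1 at rest and 3 with the covariate (1 to 1 without 1 library), and under FFSS 3, with 6 when no fold limit was set and 5 by limma-voom (3 to 7 without 1 library). For the interaction it was 0, with 3 by limma-voom (0 to 6 without 1 library). The causes were not tested.

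With the covariate the log2 value became 0.033 for Alpl and 0.81 for Bglap under FFSS in control cells, 0.22 for Alpl, 0.041 for Runx2, 0.37 for Phospho1 and 0.35 for Sp7 under FFSS in DKO cells, 0.43 for Dlx5 and 0.18 for Phospho1 between the static lines, and -0.075 for the Bglap interaction. With it 5 values no longer passed the adjusted p, and 11 newly did, of which Bglap under FFSS in control cells and Dlx5 between the static lines are among those reversed. The other 9 were Dlx3 and Bglap under FFSS in DKO cells (0.87 and 0.73), Sp7, Dlx3, Runx2 and Alpl between the static lines (1.32, 1.97, 0.6 and 0.79), Phospho1 between the lines under FFSS (0.96), and the interactions of Dlx3 and Sp7 (0.98 and 0.88). The effect fitted for the covariate rests mainly on the spread among control FFSS libraries, also where other groups are compared. With library totals alone Msx1 under FFSS in control cells became 0.055. That scaling moved the median of all genes to 0.13 under FFSS in control cells and to -0.25 between the lines under FFSS. The static difference of Msx2 became 0.0068 by limma-voom, 0.31 without control static replicate 3 and 0.072 without DKO static replicate 2 (range -0.41 to 0.31 without 1 library), and the Msx1 interaction 0.045 without DKO FFSS replicate 1 (range -0.14 to 0.045).

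The replicate numbers did not pair the libraries: deviations of same-numbered libraries correlated at 0.0023 on average. When the number was fitted as a block, counts of members called were 3, 0, 1, 4 and 0 in the order above, against 2.09%, 0.0939%, 7.92%, 8.26% and 0.564% of all genes. The fourth gene between the lines under FFSS was Alpl (log2 fold change 1, adjusted p = 0.0264 in edgeR), which also passed under FFSS in control cells (-0.96, adjusted p = 0.0472). Among lists, library totals alone turned the median under FFSS in control cells to 0.12 for RUNX2 partners and 0.09 for homeobox genes, and that of mineralization genes between the static lines to -0.03. Among the 9 genes depth limits Msx2 most, at 3 to 17 counts. Zfp521, Id4, Mepe, Sost, Col10a1, Csf1r and Fabp4 also had under 10 counts in some libraries.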
